A study of Mus musculus with 27 samples.

Results

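The heat shock and DnaJ chaperone genes examined here were chosen by name: protein-coding mouse genes whose symbols begin with Hspa, Hspb, Hspd, Hspe or Hsph and a number, with Hsp90, or with Dnaja, Dnajb or Dnajc and a number, and that had counts in 3 or more of the 27 libraries. Of 72 protein-coding symbols that match, 64 met this rule, out of 56691 gene identifiers in the count table. They were placed by the known site of their proteins into 40 cytosolic members (cytosol, nucleus and vesicle surfaces), 14 members of the endoplasmic reticulum (ER) and 10 mitochondrial members. Just inside the rule, Hspb9 and Dnajc6 had counts in 4 libraries each and Hspb2 in 5; just outside it, Hspa1l had counts in 2 libraries and Dnajb7 in 1, and Dnajb8, Dnajc22, Dnajc5b, Dnajc5g, Hspa12b and Hspb7 had none.

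The libraries are RNA-seq of microglia, the resident macrophages of the brain, sorted from around a hematoma in wild-type mice. Intracerebral hemorrhage (ICH) was induced with collagenase, an enzyme that breaks down vessel walls, and sham animals received PBS. There were 9 groups of 3 libraries: mice given an antibiotic cocktail (ABX) at ICH day 3, ICH day 7 and sham; germ-free mice (GF) at ICH day 3, ICH day 7 and sham; and specific pathogen-free mice (SPF), which have an ordinary microbiota and no antibiotic, at ICH day 3, ICH day 7 and sham. Every sham library was labelled day 7, so the day 3 ICH and sham libraries also differ in the time label; strain, age and sex are not given in the sources used here. No label says that libraries of a group came from separate animals, so p-values measure the spread between these libraries, which may be technical.

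Heat shock proteins of the Hsp70 family bind exposed stretches of unfolded proteins in cycles driven by ATP, and DnaJ proteins, also called Hsp40 or J proteins, deliver the client and start that cycle through their J domain. Hsp90 proteins act on clients at a later step of folding, Hsp60 with Hsp10 forms the chaperonin chamber of mitochondria, and small heat shock proteins hold aggregating proteins without using ATP. Each compartment has its own set: Hspa8, Hsp90aa1 and Hsp90ab1 in the cytosol, Hspa5 (BiP) and Hsp90b1 (GRP94) in the ER, and Hspa9, Hspd1 and Hspe1 in mitochondria. In the cytosol the inducible members are switched on by heat shock factor 1, and in the ER by the unfolded protein response; macrophages depend on the ER set for secreted and surface proteins.

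The promoters of these genes hold short elements through which such responses act, and those of 4 members that carry a match and that the levels below turn on are shown. They are RefSeq sequences of build GRCm38.p6, running 250 bases before to 50 bases after the start of transcription, 5′ to 3′ on the gene's strand. For Hspa5 (chr2:34771840-34772139, plus strand), Hsp90b1 (chr10:86705395-86705694, minus strand) and Dnajc3 (chr14:118937682-118937981, plus strand) the capitals mark matches to the ER stress element, spelled CCAAT, then 9 bases of any kind, then CCACG, on either strand; for Hspe1 (chr1:55087898-55088197, plus strand) they mark a heat shock element.
Hspa5: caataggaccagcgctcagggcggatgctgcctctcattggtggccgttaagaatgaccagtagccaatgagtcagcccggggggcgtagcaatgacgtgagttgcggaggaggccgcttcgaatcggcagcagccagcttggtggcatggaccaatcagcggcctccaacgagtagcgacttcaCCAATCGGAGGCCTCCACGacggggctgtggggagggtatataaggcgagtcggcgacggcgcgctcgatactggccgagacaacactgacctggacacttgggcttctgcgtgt
Hsp90b1: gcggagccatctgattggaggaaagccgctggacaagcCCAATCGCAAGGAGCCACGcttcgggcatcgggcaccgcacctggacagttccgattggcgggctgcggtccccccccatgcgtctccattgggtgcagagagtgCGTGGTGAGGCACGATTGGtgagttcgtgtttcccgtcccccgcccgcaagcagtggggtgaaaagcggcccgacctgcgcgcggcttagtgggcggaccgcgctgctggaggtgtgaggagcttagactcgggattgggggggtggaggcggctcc
Dnajc3: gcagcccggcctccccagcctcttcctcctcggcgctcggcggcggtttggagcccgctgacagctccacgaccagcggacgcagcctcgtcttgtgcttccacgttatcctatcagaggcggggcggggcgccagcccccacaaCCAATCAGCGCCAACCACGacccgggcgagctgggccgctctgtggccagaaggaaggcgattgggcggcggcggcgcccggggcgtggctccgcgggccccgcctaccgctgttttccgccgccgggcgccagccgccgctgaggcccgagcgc
Hspe1: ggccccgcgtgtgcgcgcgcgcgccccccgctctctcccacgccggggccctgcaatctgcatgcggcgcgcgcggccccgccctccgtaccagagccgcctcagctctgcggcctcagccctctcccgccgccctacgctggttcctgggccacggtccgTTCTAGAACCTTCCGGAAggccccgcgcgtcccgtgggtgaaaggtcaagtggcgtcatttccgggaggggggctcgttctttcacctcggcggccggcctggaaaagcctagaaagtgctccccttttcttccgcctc
The heat shock element was searched on both strands as 3 alternating blocks with 2 bases of any kind between them, GAA, TTC and GAA or TTC, GAA and TTC, and the 2 matches in the Hspe1 promoter overlap each other. Hspd1 and Hspe1 are transcribed away from each other from one start region, and the Hspd1 window (chr1:55087883-55088182, minus strand) holds the same matches. RefSeq promoters were found for 52 of the 64 members, 69 promoters in all. A heat shock element was present in 6 of these 69 promoters (8.70%), belonging to Hspd1, Hspe1, Hsph1 and Dnajb6, against 198 of all 32851 promoters searched (0.603%). The 6 are not separate sites: Hspd1 and Hspe1 share theirs, and Hsph1 and Dnajb6 each count in overlapping windows. By gene it was 4 of 52 (7.69%), against 179 of 27025 (0.662%). The windows of Hspa1a, Hspa1b, Dnajb1 and Hspb1 held no match to this exact spelling. The ER stress element was present in 3 of the 69 (4.35%), those of Hspa5, Hsp90b1 and Dnajc3, all ER members, against 39 of 32851 (0.119%). These matches describe the letters of the promoters; no binding was measured.

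Library totals ranged between 41664864 and 79090595 counts, and 17573 genes were tested, among them 62 of the 64 members (Dnajc6 and Hspb9 were too low). Genes were set against a common estimate of spread in edgeR's quasi-likelihood test, and a gene was called at an adjusted p under 0.05. By the number of genes with any count, 7 libraries stood apart, with 9185 to 11925 detected genes against 13536 to 18408 in the other 20. They were the whole GF ICH day 7 group, 2 ABX libraries of ICH day 7 (replicates 1 and 2) and 2 GF sham libraries (also replicates 1 and 2). The chaperone genes followed this split. Between 16 and 40 members (median 27) reached 5 CPM (counts scaled to the TMM size of each library) in the 7 libraries, against 33 to 52 (median 48) in the 20, and the 33 belonged to ABX ICH day 7 replicate 3. In the groups that hold these 7, some members were low in one library and high in another. Under 5 CPM in one library and over 100 CPM in another of the same group were 12 members in ABX ICH day 7, 11 in GF ICH day 7 and 6 in GF sham, and 0 in each of the other 6 groups. ABX ICH day 7 replicate 3 and GF sham replicate 3, outside the 7, are part of these counts.

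**Figure D1:**
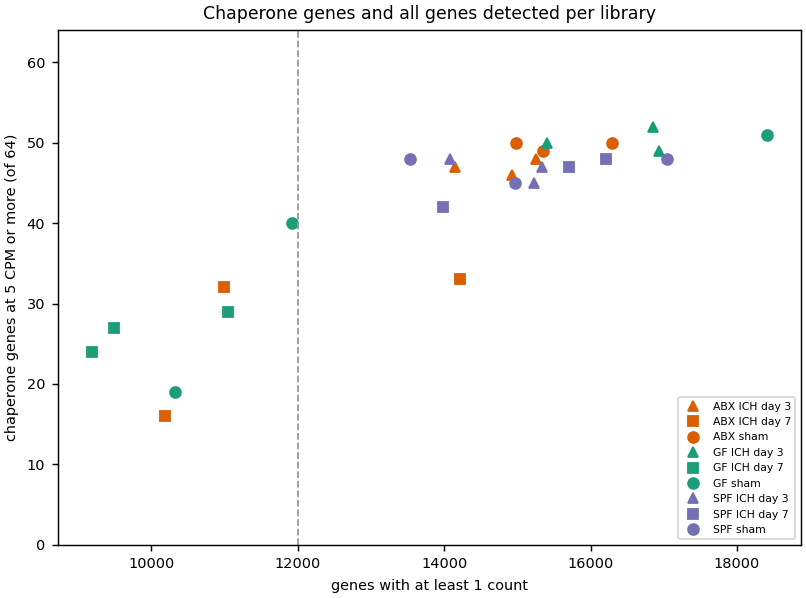
Number of chaperone genes at 5 CPM or more, out of 64, against the number of genes with at least 1 count, 1 point per library, with colours for housing and shapes for surgery and day. The 7 libraries left of the dashed line at 12000 detected genes hold 16 to 40 of the members, and the 20 to its right 33 to 52.

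The constitutive Hsp70s and the ER Hsp90 dominated the family. Together Hspa5, Hspa8 and Hsp90b1 took 46.1 to 71.3% (median 59.9%) of all counts of the 64 members in a library, and the members as a whole took 0.626 to 1.64% of all counts (median 1.01%). Per kilobase of transcript, the median level in the 20 libraries over 12000 detected genes was 669 CPM for Hspa8, the constitutive cytosolic Hsp70, 585 CPM for Hspa5, the main ER Hsp70, and 451 CPM for Hsp90b1, its Hsp90 partner. Below them came the cytosolic Hsp90s, Hsp90ab1 at 243 and Hsp90aa1 at 120 CPM per kilobase, and the mitochondrial Hsp10, Hspe1, at 114 CPM per kilobase.

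These abundant members were among the steadier ones. Over the 20 libraries over 12000 detected genes the coefficient of variation was 24.4% for Hspe1, 26.0% for Hsp90b1, 32.1% for Hspa5 and 39.0% for Hspa8, against 101% for Dnajb9, an ER J protein that brings clients to Hspa5. The DnaJ genes with the highest levels per kilobase were Dnajc8, a J protein found with the splicing machinery, at 84.1 CPM, Dnajb11, an ER co-chaperone of Hspa5, at 82.0 CPM, and Dnajc7, which binds both Hsp70 and Hsp90, at 66.5 CPM.

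The heat-inducible Hsp70 genes were low in most libraries. Hspa1a had 8.45, 0.0855 and 0.721 CPM at ABX ICH day 3, 0.190, 67.2 and 0.105 CPM at ABX ICH day 7 and 9.78, 0.511 and 1.97 CPM in ABX sham. It had 1.74, 0.0448 and 5.00 CPM at GF ICH day 3, 0, 0.263 and 0.0210 CPM at GF ICH day 7 and 0.322, 45.6 and 1.61 CPM in GF sham. It had 4.19, 1.08 and 10.3 CPM at SPF ICH day 3, 0.0570, 1.40 and 0.0654 CPM at SPF ICH day 7 and 0.125, 0 and 0.0894 CPM in SPF sham. The 2 libraries above 45 CPM, ABX ICH day 7 replicate 2 and GF sham replicate 2, are both among the 7 with few detected genes. Hspa1b, its near copy, lay under 5 CPM in all 20 libraries over 12000 detected genes and reached 14.4 and 8.65 CPM in the same 2. The coding sequences of Hspa1a and Hspa1b are 99.43% identical (11 of 1929 aligned positions differ or are gaps), so how the counts divide between them is uncertain.

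**Figure D2:**
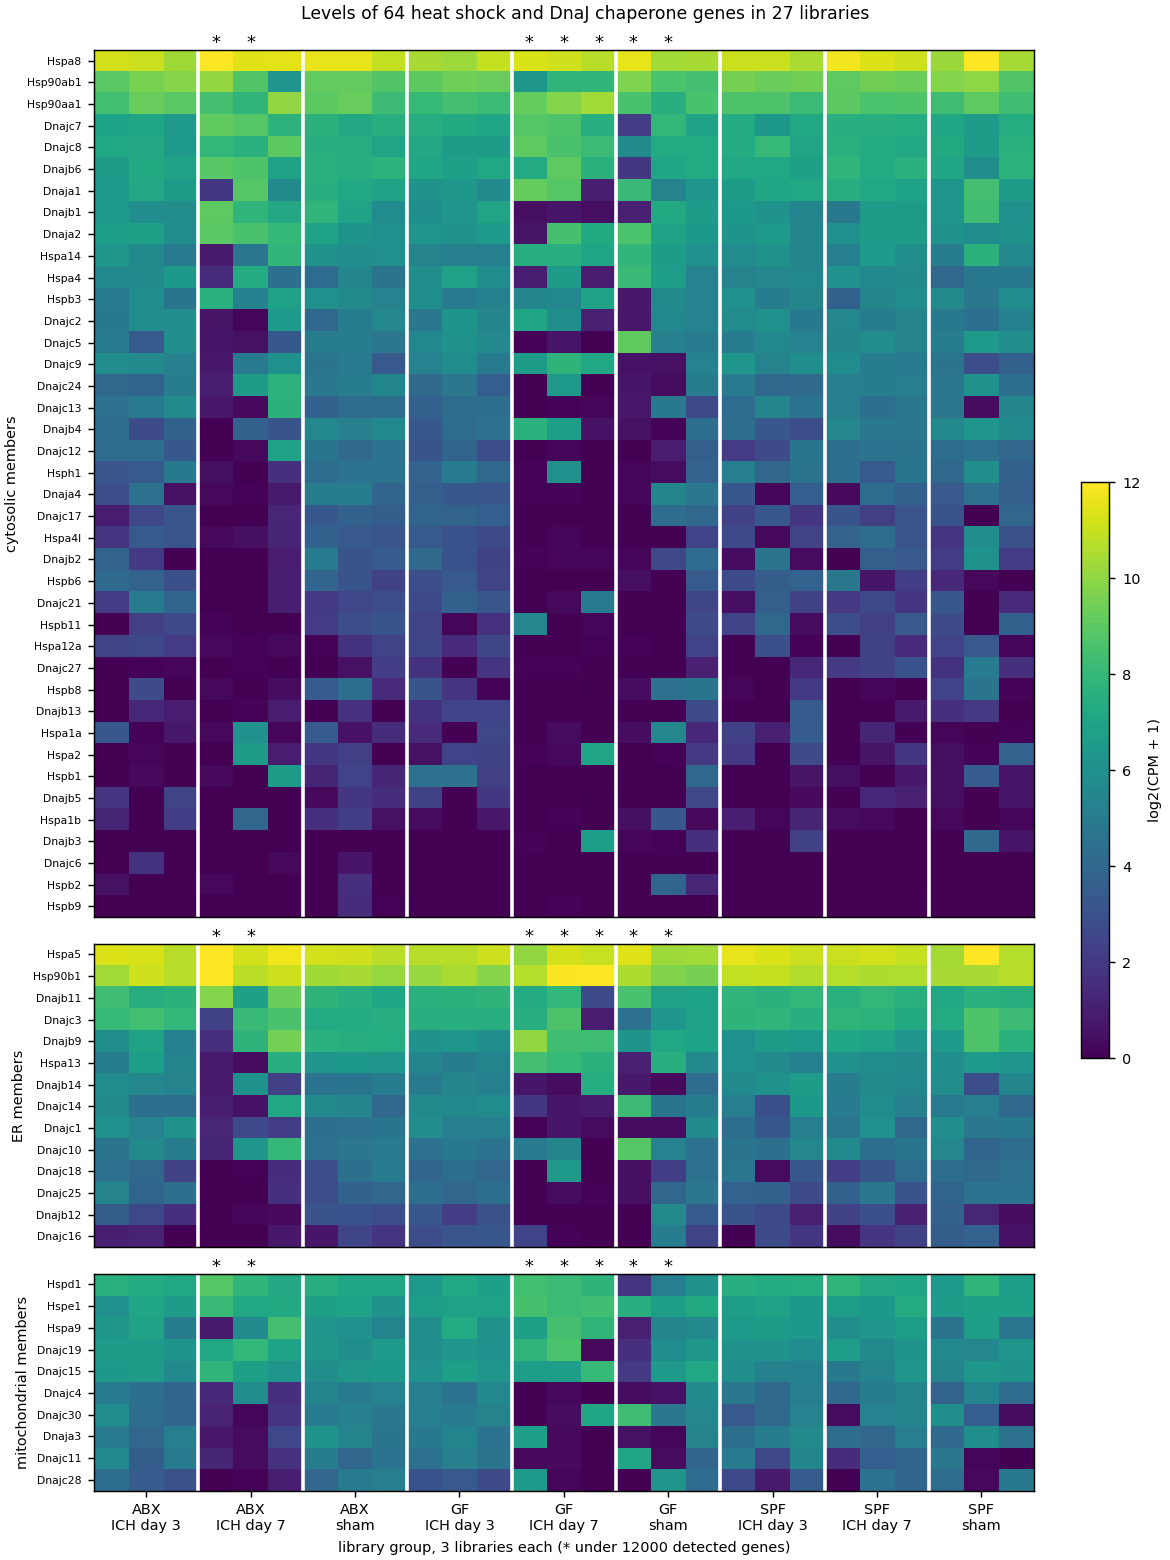
Level of each of the 64 members, as log2(CPM + 1), in each of the 27 libraries, with members grouped as cytosolic, ER and mitochondrial and ordered by level; asterisks mark the 7 libraries with under 12000 detected genes. Hspa8, Hspa5 and Hsp90b1 are bright in every library, while most DnaJ genes switch between dark and bright within the marked groups.

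After hemorrhage in mice with an ordinary microbiota no chaperone gene passed the test against sham at either time. In SPF mice none of the 62 tested members was called at day 3 against sham, where 0.102% of all genes were called, and none at day 7 against sham, where 0.0797% were. In each, 1 member had an unadjusted p under 0.05, Hspa1a at day 3 and Hspb8 at day 7, beside 1276 and 880 of 17573 genes. DESeq2 called 1 member in each, the same 2 genes, with 5.43% and 4.03% of all genes called. Hspa5 had 3043, 2521 and 2124 CPM at SPF ICH day 3, 2093, 2304 and 1984 CPM at SPF ICH day 7 and 1322, 4236 and 1623 CPM in SPF sham. The sham libraries were the widest apart and enclosed all 6 ICH libraries. The log2 fold change of Hspa5 was 0.10 at day 3 (95% interval −0.74 to 0.94) and −0.17 at day 7 (−1.01 to 0.67). For Hspa8 it was −0.23 (−1.07 to 0.61) and 0.34 (−0.50 to 1.19), and for Hsp90b1 0.29 (−0.44 to 1.02) and 0.07 (−0.66 to 0.80). Intervals of this width leave room for changes of up to about 1 on the log2 scale in the 3 most abundant members.

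The mitochondrial chaperonin and the cytosolic Hsp90 genes were not called in SPF mice either. Hspd1 (Hsp60) had 185, 167 and 169 CPM at SPF ICH day 3, 233, 149 and 136 CPM at SPF ICH day 7 and 90.2, 233 and 100 CPM in SPF sham, and its log2 fold changes were 0.30 ± 0.69 at day 3 and 0.29 ± 0.69 at day 7 (standard error). Its partner Hspe1 had log2 fold changes of −0.03 ± 0.50 and 0.17 ± 0.50. Hsp90aa1, the inducible cytosolic Hsp90, had −0.10 ± 0.47 and 0.17 ± 0.47, and Hsp90ab1, its constitutive counterpart, −0.16 ± 0.58 and −0.32 ± 0.58. Hspa1a, with levels of 10.3 CPM or less, had a log2 fold change of 6.13 ± 2.80 at SPF day 3; its adjusted p was 0.659 in edgeR and 0.0325 in DESeq2.

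A pair of J proteins, Dnajb4 and Dnajb9, stood low at day 3, without a call when all libraries were used. Dnajb4, a cytosolic J protein that works with Hsp70, had 18.5, 8.90 and 6.49 CPM at SPF ICH day 3 and 46.9, 78.7 and 52.5 CPM in SPF sham. It had 18.6, 5.83 and 12.2 CPM at ABX ICH day 3 and 47.9, 36.5 and 47.3 CPM in ABX sham. In both housings the 3 ICH libraries lay below the 3 sham libraries with no overlap. With all 27 libraries in the fit the edgeR log2 fold change was −2.39 ± 1.66 in SPF (adjusted p = 0.843) and −1.85 ± 1.63 in ABX (adjusted p = 1). Without the 7 libraries under 12000 detected genes, a fit in which the standard errors were smaller, Dnajb4 fell at SPF day 3 by 2.38 on the log2 scale (standard error 0.55, edgeR adjusted p = 0.0400), the single member called there while 1.26% of all genes were. In ABX the value without them was −1.89 ± 0.54 (edgeR adjusted p = 0.121). Markers of other cells moved in the same libraries. Summed astrocyte markers (6 genes) were 78.4 to 92.8 CPM at SPF ICH day 3 and 291 to 679 CPM in SPF sham. They were 75.1 to 112 CPM at ABX ICH day 3 and 217 to 408 CPM in ABX sham. None of the 6 was at 0 throughout any of these groups. Summed microglia markers (10 genes, none at 0) were 32174 to 37287 CPM at SPF ICH day 3 and 52023 to 59138 CPM in SPF sham. They were 25490 to 37416 CPM at ABX ICH day 3 and 53613 to 62964 CPM in ABX sham. Summed border macrophage markers (6 genes) were 39.99 to 148 CPM at SPF ICH day 3, with Cd163 and Lyve1 at 0, and 0.809 to 8.29 CPM in SPF sham, with Lyve1 at 0. They were 31.6 to 140 CPM at ABX ICH day 3, with Cd163 at 0, and 0.978 to 22.1 CPM in ABX sham, with Lyve1 at 0. Summed oligodendrocyte markers (6 genes) were 105 to 153 CPM at SPF ICH day 3 and 189.6 to 1775 CPM in SPF sham, where Mog was at 0. In ABX they overlapped, at 142 to 216 CPM at ICH day 3 and 131 to 172 CPM in sham. Summed monocyte markers (7 genes) were 41.4 to 80.4 CPM at SPF ICH day 3 and 7.67 to 38.3 CPM in SPF sham. They were 42.1 to 82.5 CPM at ABX ICH day 3, with Chil3 and Vcan at 0, and 6.74 to 18.8 CPM in ABX sham, with Vcan at 0. The part of these cells in the level of Dnajb4 was not tested. In GF the groups overlapped, at 8.48, 17.1 and 21.8 CPM at GF ICH day 3 and 0.443, 0.0871 and 19.7 CPM in GF sham, where the 2 low values belong to the libraries with few detected genes.

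Dnajb9, an ER J protein induced by the unfolded protein response, had 64.4, 98.0 and 90.1 CPM at SPF ICH day 3 and 88.4, 406 and 200 CPM in SPF sham. It had 61.3, 120 and 37.9 CPM at ABX ICH day 3 and 204, 174 and 169 CPM in ABX sham. It had 67.6, 77.9 and 58.1 CPM at GF ICH day 3 and 73.4, 145 and 122 CPM in GF sham. The groups did not overlap in ABX, and 1 library overlapped in each of SPF and GF. Averaged over the housings, each with equal weight, the log2 fold change at day 3 was −1.17 ± 0.54 (edgeR adjusted p = 0.361). Over these averages no member was called at day 3, where 1.30% of all genes were. An unadjusted p under 0.05 was found for 2 members, beside 2168 of 17573 genes. DESeq2 called 0 members, with 8.53% of all genes. Without the 7 libraries 2 members fell, with 2.51% of all genes called: Dnajb9, by 1.21 on the log2 scale (standard error 0.29, edgeR adjusted p = 0.0323), and Dnajb4, by 1.53 (standard error 0.34, edgeR adjusted p = 0.0222). In SPF and ABX the astrocyte, microglia and border macrophage sums given for Dnajb4 moved with Dnajb9 too. In GF the astrocyte sum was 117 to 160 CPM at ICH day 3 and 181 to 404 CPM in sham. The GF microglia sums overlapped, at 31088 to 55525 CPM at ICH day 3 and 45682 to 107644 CPM in sham. So did the GF border macrophage sums, at 29.1 to 92.4 CPM and 11.8 to 614 CPM, with Lyve1 at 0 in sham. GF sham replicate 3, the one kept without the 7 libraries, had 66004.5 CPM of microglia and 11.8 CPM of border macrophage markers. The part of these cells was not tested. GF sham then rested on 1 library, which is assumed to vary like the other groups.

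In ABX and GF mice at day 3 no member was called either, against 0.125% and 0.00569% of all genes. An unadjusted p under 0.05 was found for 0 and 3 members, beside 1453 and 929 of 17573 genes. DESeq2 called 0 (with 6.18% of all genes) and 1 (with 4.05%), the 1 being Hspb2, with counts in 5 libraries in all. Among members of 10 CPM or more on average, the changes of greatest size against sham were those of Dnajb4 (−2.39) and Dnajc9 (2.11) at SPF day 3, of Hspa2 (−4.98) and Dnajc1 (1.34) at ABX day 3 and of Dnajc10 (−2.84) and Dnajb14 (2.43) at GF day 3, none of them called. Hspd1 was the one well-expressed member among the 3 in GF. It had 85.9, 144 and 108 CPM at GF ICH day 3, against 2.46, 35.7 and 69.8 CPM in GF sham, and a log2 fold change of 1.65 ± 0.71 (edgeR adjusted p = 0.797).

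**Figure D3:**
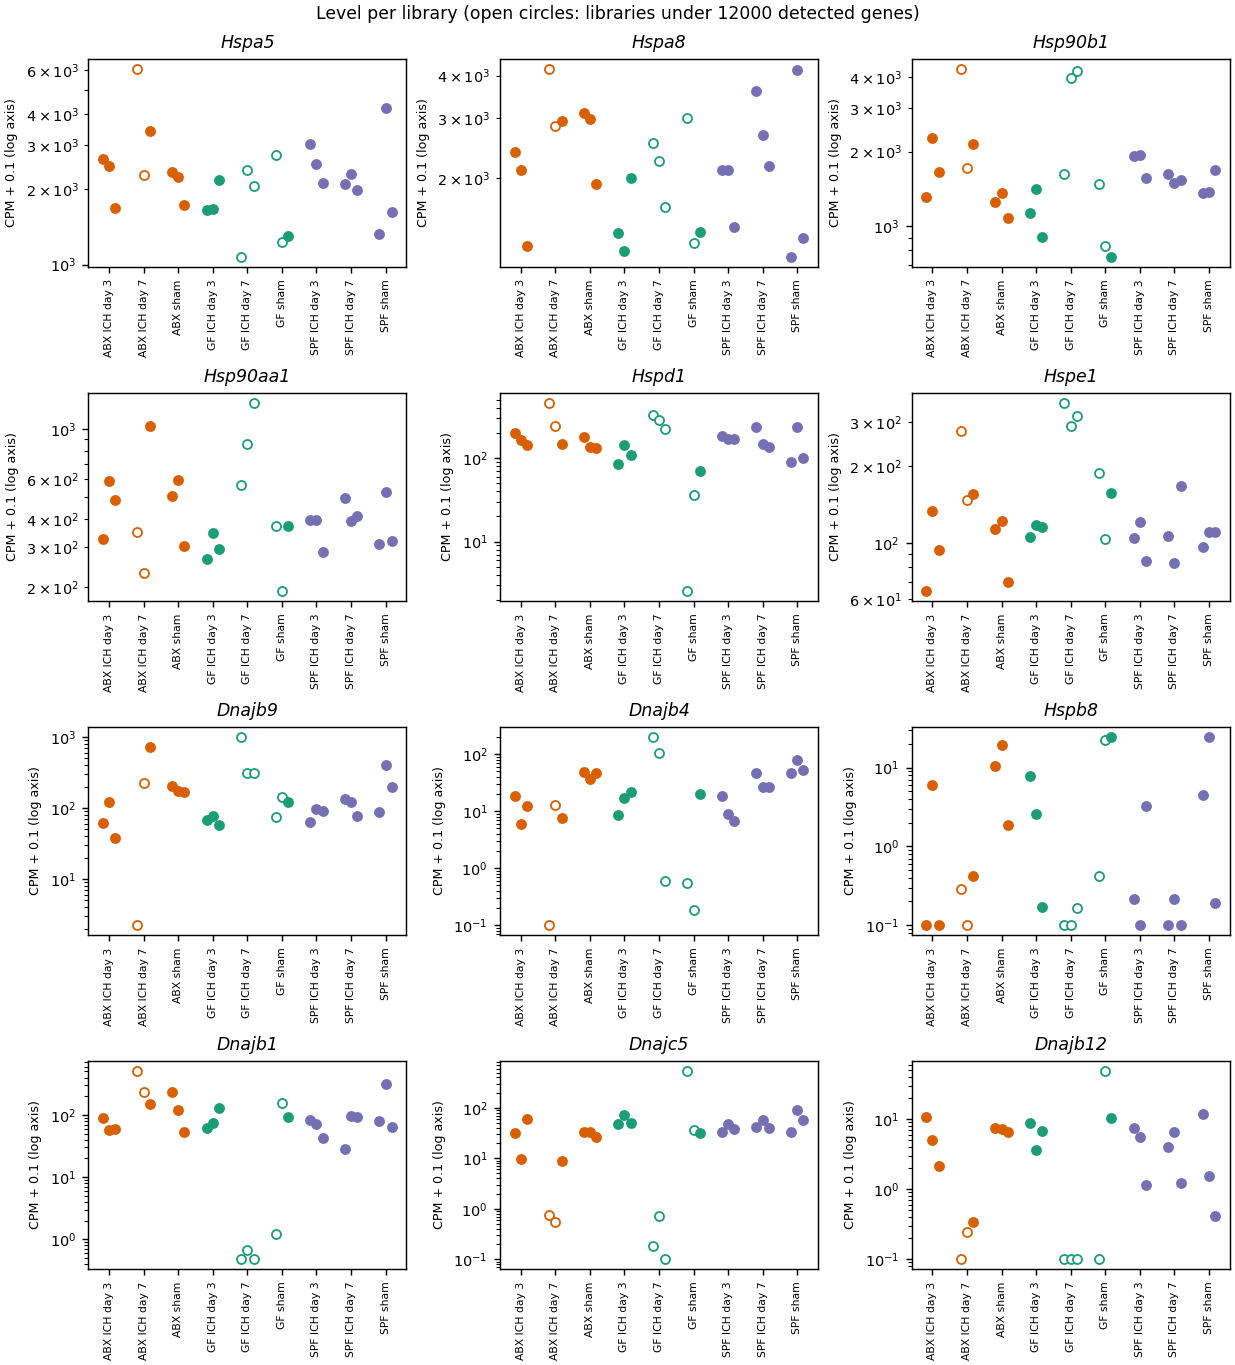
Level of 12 members in each library, as CPM + 0.1 on log axes that differ between panels, by group; open circles are the 7 libraries with under 12000 detected genes. Hspa5 and Hspa8 overlap between groups, Hsp90b1, Hsp90aa1, Hspd1 and Hspe1 are high at GF ICH day 7, Hspb8 is at 0.315 CPM or less in all 9 ICH day 7 libraries, and Dnajb1, Dnajc5 and Dnajb12 are near 0 at GF ICH day 7.

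At day 7 after hemorrhage the levels of 16 members changed in germ-free mice. In GF ICH day 7 against GF sham 4 members rose and 12 fell, of 62 tested, while 1.70% of all genes rose and 12.7% fell (14.4% called in all). The 4 that rose were Hsp90b1, Hsp90aa1, Hspd1 and Dnajc8. Those that fell were Hspb6 and DnaJ genes, and DnaJ genes make up most of the tested members. All 3 GF ICH day 7 libraries and 2 of the 3 GF sham libraries are among the 7 with few detected genes, so this comparison cannot be run without them.

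Hsp90b1, the ER Hsp90 that folds secreted and surface proteins such as Toll-like receptors and integrins, had 1622, 3958 and 4223 CPM at GF ICH day 7 and 1486, 833 and 752 CPM in GF sham. All 3 ICH libraries lay above all 3 sham libraries, the lowest by a small margin. Its log2 fold change was 1.67 ± 0.36 (edgeR adjusted p = 0.00387), and it kept its call when any single library was left out. With DESeq2 size factors it lost the call. It was not called by DESeq2 (1.09, adjusted p = 0.112), and with a correction for the GC content of genes its log2 fold change was 0.01 (edgeR adjusted p = 1). Hsp90aa1 had 564, 860 and 1306 CPM at GF ICH day 7 and 372, 191 and 372 CPM in GF sham, again with no overlap. Its log2 fold change was 1.55 ± 0.48 (edgeR adjusted p = 0.0337), 1.05 in DESeq2 (adjusted p = 0.104) and 0.03 with the GC correction. Leaving out GF ICH day 3 replicate 3, GF ICH day 7 replicate 2 or 3 or GF sham replicate 2 or 3 ended the call, with an adjusted p of up to 0.151. Hsp90aa1 was also not called in limma, with DESeq2 size factors, without a filter or with the replicate block.

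Hspd1, the mitochondrial chaperonin, had 328, 286 and 220 CPM at GF ICH day 7 and 2.46, 35.7 and 69.8 CPM in GF sham. Every ICH library lay far above every sham library, and the ICH values lay close together. The log2 fold change was 2.95 ± 0.75 (edgeR adjusted p = 0.0106), was called by DESeq2 (2.65, adjusted p = 0.00108) and limma (2.85, adjusted p = 0.0278) and with the GC correction (2.45, edgeR adjusted p = 0.0283), and held with any single library left out. Set against GF sham replicate 3 alone, the one GF sham library with an ordinary number of genes, it was 1.99 and was not called (edgeR adjusted p = 0.120). Dnajc8 had 521, 381 and 289 CPM at GF ICH day 7 and 51.4, 160 and 159 CPM in GF sham, a log2 fold change of 1.69 ± 0.53 (edgeR adjusted p = 0.0355) that lost its call in 21 of the 27 fits that each left out 1 library, and with the GC correction (0.39, edgeR adjusted p = 0.616). Dnajc8 also lost this call in limma, with DESeq2 size factors, without a filter and with the replicate block.

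Other chaperones of mitochondria stood high at GF ICH day 7 without passing the test. Hspe1 had 357, 289 and 315 CPM at GF ICH day 7 and 188, 104 and 157 CPM in GF sham, with a log2 fold change of 1.10 ± 0.51 (edgeR adjusted p = 0.137). Hspa9, the mitochondrial Hsp70 that drives protein import, had 111, 346 and 232 CPM at GF ICH day 7 and 1.09, 43.4 and 49.4 CPM in GF sham, with 2.88 ± 1.24 (edgeR adjusted p = 0.116). In both genes the groups did not overlap. Hspa5 and Hspa8 did overlap: Hspa5 had 1072, 2399 and 2056 CPM at GF ICH day 7 and 2750, 1227 and 1300 CPM in GF sham, with a log2 fold change of 0.07 (95% interval −0.77 to 0.90), and that of Hspa8 was 0.18 (−0.66 to 1.02). Hsp90ab1 lay lower, unlike Hsp90aa1, at 81.9, 231 and 235 CPM at GF ICH day 7 and 830, 393 and 348 CPM in GF sham, with no overlap and a log2 fold change of −1.52 ± 0.59 that missed the threshold (edgeR adjusted p = 0.0831).

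The other leading members gave no call in this comparison, and in several 1 GF ICH day 7 library stood apart. Dnajc3, an ER co-chaperone of Hspa5, had 180, 396 and 0.946 CPM at GF ICH day 7 and 21.4, 77.6 and 115 CPM in GF sham, and Dnajb11 had 165, 248 and 5.87 CPM at GF ICH day 7 and 372, 116 and 125 CPM in GF sham. Dnaja1, a cytosolic partner of Hspa8, had 570, 458 and 0.988 CPM at GF ICH day 7 and 283, 40.5 and 77.8 CPM in GF sham, and Dnajc19, of the mitochondrial import motor, had 231, 383 and 0.252 CPM at GF ICH day 7 and 2.09, 56.4 and 80.7 CPM in GF sham. In all 4 genes replicate 3 of GF ICH day 7 was far below the other two, and the edgeR adjusted p-values lay between 0.192 (Dnajc19) and 0.621 (Dnajb11). Hspb1, a small heat shock protein, had 0 counts at GF ICH day 7 and 0, 0 and 15.1 CPM in GF sham (edgeR adjusted p = 0.0579).

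The members that fell at GF ICH day 7 were close to absent there: all 12 lay at 2.72 CPM or less in each of the 3 libraries. Dnajb1, the heat-inducible cytosolic Hsp40 and main partner of Hspa1a and Hspa8, had 0.379, 0.583 and 0.378 CPM at GF ICH day 7 and 1.13, 155 and 94.2 CPM in GF sham. Its level in the 24 other libraries was 1.13 to 516 CPM. Its log2 fold change was −7.53 ± 1.28 (edgeR adjusted p = 0.000629); under the alternatives it lay between −7.87 and −6.09, and limma alone did not call it (−7.43, adjusted p = 0.0774). Dnajc5, the cysteine string protein of secretory vesicles, had 0.0842, 0.620 and 0 CPM at GF ICH day 7 and 544, 36.3 and 31.1 CPM in GF sham, a log2 fold change of −9.74 ± 1.81 (edgeR adjusted p = 0.00134). Dnajb12, an ER membrane J protein that acts in ER-associated degradation, had 0 counts in all 3 GF ICH day 7 libraries and 0, 49.5 and 10.2 CPM in GF sham. Set against a floor of 3 counts per library (0.0609 CPM), it was at least 327-fold lower (edgeR adjusted p = 0.00540). Dnajc5 and Dnajb12 were called under every alternative test and with any single library left out.

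The 9 others that fell were Dnaja4 (−8.75 on the log2 scale), Dnajc1 (−5.61), Dnajc4 (−7.95), Dnajc11 (−8.29), Dnajc13 (−7.36), Dnajc14 (−6.41), Dnajc17, Dnajc25 (−6.87) and Hspb6, with edgeR adjusted p-values of 0.0145 to 0.0306. Dnajc17, a nuclear J protein, and Hspb6, a small heat shock protein, had 0 counts in all 3 GF ICH day 7 libraries and were at least 187-fold and 54.8-fold lower than GF sham. In GF sham 8 of the 9 had at least 1 library under 1 CPM, the exception being Dnajc14, with 301, 24.6 and 33.4 CPM there and 2.72, 0.658 and 0.841 CPM at GF ICH day 7. Each of these 9 calls was lost when some single library was left out, most often GF ICH day 7 replicate 3 or 1. Dnajc1, a ribosome-associated ER J protein, had 0.0842, 0.677 and 0.294 CPM at GF ICH day 7 and 0.322, 0.327 and 51.2 CPM in GF sham; its call rested on GF sham replicate 3, without which its log2 fold change was 0.11 (edgeR adjusted p = 1). Of the 16 called genes, Dnajb12, Dnajc1, Dnajc17 and Hspb6 had ICH libraries that overlapped the sham libraries. The genes were picked by their call, so a lack of overlap in the others adds no support. Of all 64 members 22 overlap an exon of another gene on the opposite strand, and of the 24 called in any comparison 11 do. Among these 11 are Dnaja4, Dnajc1, Dnajc14, Dnajc17, Hspb6, Hsp90b1 and Hspd1. Since nothing states that strand was used in counting, reads of the paired genes cannot be told apart.

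**Figure D4:**
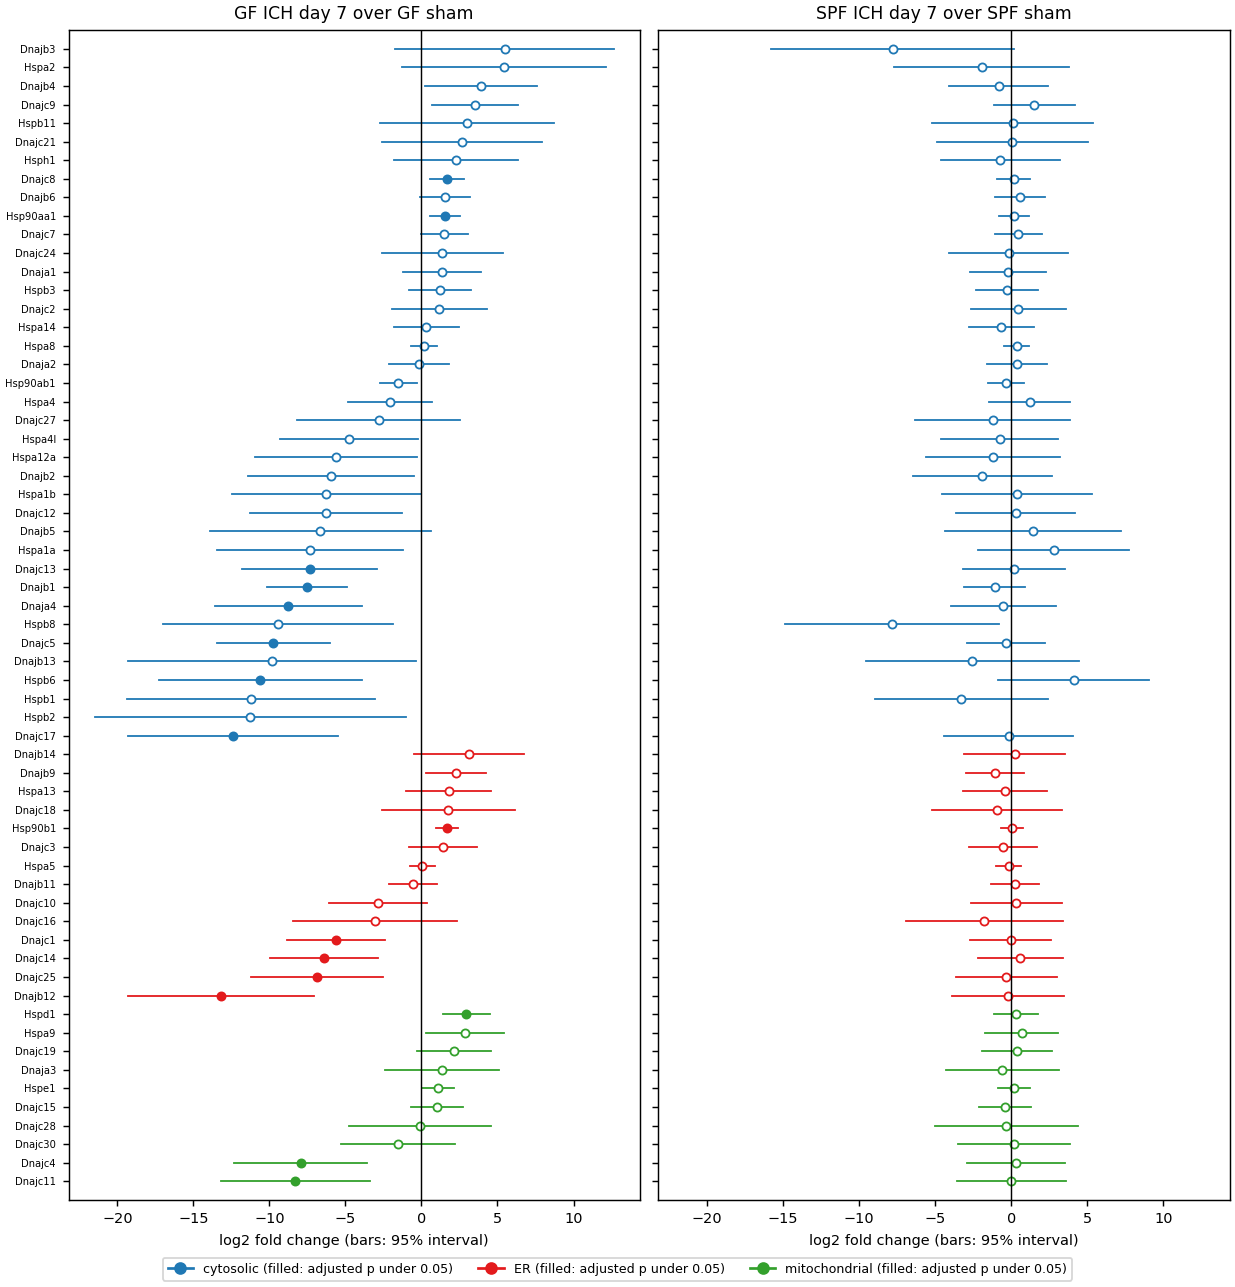
Log2 fold change of each tested member with its 95% interval, for GF ICH day 7 over GF sham (left) and SPF ICH day 7 over SPF sham (right), coloured by compartment and ordered within it by the left panel; filled points have an adjusted p under 0.05, and Hspb2, at 0 in all 6 SPF libraries, is left out on the right. On the left 4 members are called higher and 12 lower, on the right none is called.

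Several other measures moved with GF ICH day 7. Summed neutrophil markers (8 genes) were 2434 CPM (920 to 3573) at GF ICH day 7, against 442 CPM (208 to 895) in GF sham, where 2 of the 8 were at 0 in all libraries, and 113 CPM at SPF ICH day 7. Summed monocyte markers (7 genes) were 1000 CPM (481 to 1549), against 217 CPM (4.12 to 614) in GF sham. Summed microglia markers (10 genes) were 52832 CPM (41929 to 68031), against 73110 CPM (45682 to 107644) in GF sham, and none of the 10 was at 0 in any group. Among them Csf1r (130.8 CPM at GF ICH day 7 and 8030 CPM in GF sham), Cx3cr1 and Tmem119 fell, and P2ry12 had a log2 fold change of 0.83 ± 0.36 (edgeR adjusted p = 0.112). Immediate early genes summed to 396 CPM (113 to 629), against 8254 CPM (2854 to 12956) in GF sham. Mitochondrial transcripts made up 4.71% of counts at GF ICH day 7, against 1.32% in GF sham. In bulk RNA fewer cells of a type and less RNA per cell cannot be told apart.

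GC content moved with it too. Among well-expressed genes, those of high GC content lay lower than those of low GC content at GF ICH day 7 and higher in GF sham: the median centred log2 CPM of the 20% of genes with the most GC minus that of the 20% with the least was −2.13 at GF ICH day 7 and 0.76 in GF sham. The 4 members that rose had transcripts of 42.05 to 46.84% GC (median 43.97%) and the 12 that fell 45.26 to 57.45% (median 51.19%), while all 62 tested members spanned 39.47 to 61.72% (median 47.38%). The part of these measures in the calls was not tested, other than by the GC correction, which ended the call of Hsp90b1, Hsp90aa1, Dnajc8, Dnajc4 and Hspb6 and left those of Hspd1, Dnajb1, Dnajc5 and Dnajb12.

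By compartment, the calls at GF ICH day 7 ran both ways in each, beside 1.70% of all genes higher and 12.7% lower, and no difference between compartments was tested. Of the 38 tested cytosolic members 2 rose and 6 fell, of the 14 ER members 1 rose and 4 fell, and of the 10 mitochondrial members 1 rose and 2 fell. The median log2 fold change was −1.80 for the cytosolic, −0.24 for the ER and 1.06 for the mitochondrial members, beside −0.14 for all members and −2.10 for all 17573 genes; the median of all members was the same with the genes at 0 counts set to their bound. The summed level of the mitochondrial members was 1298 ± 125 CPM at GF ICH day 7 and 580 ± 132 CPM in GF sham (SD, n = 3 each), with no overlap. That of the ER members was 6372 ± 1723 CPM at GF ICH day 7 and 3621 ± 1599 CPM in GF sham, and that of the cytosolic members 5541 ± 813 CPM at GF ICH day 7 and 4179 ± 1579 CPM in GF sham. In SPF mice the medians lay near 0 at day 7, at −0.18 for cytosolic, −0.20 for ER and 0.18 for mitochondrial members, beside −0.03 for all genes, and the mitochondrial sum was 596 ± 95.9 CPM at ICH day 7 and 524 ± 139 CPM in sham. In ABX mice the mitochondrial sum was 942 ± 149 CPM at ICH day 7 and 625 ± 67.4 CPM in sham. The ER sum was 7977 ± 3267 CPM at ABX ICH day 7 and 4110 ± 498 CPM in ABX sham. The cytosolic sum was 6919 ± 1006 CPM at ABX ICH day 7 and 5035 ± 1036 CPM in ABX sham (SD, n = 3 each). In each compartment the groups did not overlap. These sums rest on TMM factors of 0.476, 0.843 and 0.644 at ABX ICH day 7 and 1.16, 1.15 and 1.29 in ABX sham. Without this scaling, all members took a mean of 0.983% of counts at ABX ICH day 7 and 1.16% in ABX sham.

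In antibiotic-treated mice at day 7 no member was called, against 0.945% of all genes, and 15 of 62 members had an unadjusted p under 0.05, beside 3776 of all 17573 genes. DESeq2 called 19 members, all lower, with 27.8% of all genes. Hsp90b1 had 4326, 1722 and 2147 CPM at ABX ICH day 7 and 1256, 1367 and 1084 CPM in ABX sham, without overlap, and a log2 fold change of 1.14 ± 0.36 (edgeR adjusted p = 0.128). Hspe1 had 276, 147 and 156 CPM at ABX ICH day 7 and 113, 122 and 69.6 CPM in ABX sham, again without overlap, with 0.93 ± 0.50 (edgeR adjusted p = 0.255). Hsph1, an Hsp110 that recharges Hsp70, had 0.379, 0 and 2.05 CPM at ABX ICH day 7 and 18.6, 22.9 and 22.4 CPM in ABX sham, with −4.72 ± 2.21 (edgeR adjusted p = 0.226). In the fit without the 7 libraries, with replicate 3 of ABX ICH day 7 set alone against ABX sham and assumed to vary like the other groups, 6 members were called, with 7.79% of all genes. Hsp90ab1 (74.8 CPM in that library), Dnajc4 and Dnaja3 were lower, by 3.04, 4.46 and 3.49 on the log2 scale, and the ER J proteins Dnajb11 and Dnajc10, with Dnajc24, were higher by 1.49, 2.99 and 2.38; none of these 6 was called with all libraries. In that library summed monocyte markers (7 genes) were 810 CPM, against 6.74 to 18.8 CPM in ABX sham, and border macrophage markers 90.3 CPM, against 0.978 to 22.1 CPM in ABX sham. Oligodendrocyte markers were 1434 CPM, against 131 to 172 CPM in ABX sham, and astrocyte markers 57.9 CPM, against 217 to 408 CPM in ABX sham. Vcan of the monocyte list and Lyve1 of the border macrophage list were at 0 in ABX sham. The part of these cells in the 6 calls was not tested.

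Hspb8 was at or near 0 in all 9 libraries of ICH day 7. This small heat shock protein works with Bag3 in the selective autophagy of misfolded proteins. It had 0.190, 0 and 0.315 CPM at ABX ICH day 7, against 10.4, 19.3 and 1.75 CPM in ABX sham. It had 0, 0 and 0.0631 CPM at GF ICH day 7, against 0.322, 22.3 and 24.6 CPM in GF sham. It had 0, 0.117 and 0 CPM at SPF ICH day 7, against 4.38, 23.9 and 0.0894 CPM in SPF sham. In ABX and GF all 3 ICH libraries lay below all 3 sham libraries; in SPF 1 sham library was as low as the ICH libraries. Averaged over the housings Hspb8 fell by 7.74 on the log2 scale (standard error 1.97, edgeR adjusted p = 0.0103), and the call held under each alternative test and with any single library left out. Within one housing it did not pass in edgeR (−5.95 in ABX, adjusted p = 0.249; −9.42 in GF, adjusted p = 0.0831; −7.84 in SPF, adjusted p = 0.897), while DESeq2 called it in SPF (−7.96, adjusted p = 0.0249). At day 3 it was intermediate, at 0, 5.97 and 0 CPM in ABX, 7.73, 2.49 and 0.0707 CPM in GF and 0.114, 0 and 3.13 CPM in SPF, with an averaged log2 fold change of −2.57 ± 1.55 against sham (edgeR adjusted p = 0.592). In the 20 libraries over 12000 detected genes its median was 1.03 CPM, so these are changes of a gene that was low throughout.

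Averaged over the 3 housings, 3 members rose and 11 fell at day 7 against sham, while 3.72% of all genes rose and 16.5% fell (20.2% in all). Those that rose were Hsp90b1 (0.96 ± 0.21, edgeR adjusted p = 0.00354), Hspd1 (1.39 ± 0.41, edgeR adjusted p = 0.0218) and Dnajc8 (0.93 ± 0.30, edgeR adjusted p = 0.0348). Those that fell were Hspb8, Dnaja4, Dnajb1, Dnajb2, Dnajb12, Dnajc1, Dnajc4, Dnajc5, Dnajc11, Dnajc17 and Dnajc25. Hspd1 lost its call without ABX ICH day 7 replicate 1, SPF ICH day 7 replicate 1 or SPF sham replicate 1, with an adjusted p of up to 0.0570, and Hsp90b1 lost its call in DESeq2, with DESeq2 size factors and with the GC correction. Dnajc8 lost its call in 14 of the 27 fits without 1 library and under every alternative that could be fitted other than DESeq2. Among those that fell, Dnajc4 lost its call in 23 of these fits (adjusted p up to 0.508), and Dnajb2 in 10. Dnajc1 lost it without GF sham replicate 3 (up to 0.392) or SPF ICH day 7 replicate 1 or 3. Dnajc25 lost it without either of the same SPF libraries (up to 0.0534) and Dnajc11 without SPF sham replicate 1 (0.162). In SPF mice alone the log2 fold changes were 0.07 for Hsp90b1, 0.29 for Hspd1 and 0.15 for Dnajc8. For Dnajb1 the averaged value of −2.49 joins −7.53 in GF with 1.15 in ABX and −1.09 in SPF.

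Between day 7 and day 3 of hemorrhage the SPF libraries showed no called member and no called gene at all (0%). There 0 members had an unadjusted p under 0.05, beside 719 of 17573 genes, and DESeq2 called 0, with 3.77% of all genes. In ABX none was called, against 0.728% of all genes, and 14 of 62 had an unadjusted p under 0.05, beside 3663 of 17573 genes. In GF 5 rose and 14 fell, while 1.83% of all genes rose and 13.4% fell (15.3% in all). Dnajb9 had 1013, 315 and 306 CPM at GF ICH day 7 and 67.6, 77.9 and 58.1 CPM at GF ICH day 3, the highest levels of this gene beside ABX ICH day 7 replicate 3 (717 CPM) and SPF sham replicate 2 (406 CPM). Its log2 fold change was 3.01 ± 0.99 (edgeR adjusted p = 0.0427), a call that was lost in 18 of the 27 fits without 1 library. The other 4 that rose were Hsp90b1 (1.50 ± 0.36, edgeR adjusted p = 0.00847), Hsp90aa1 (1.59 ± 0.48, adjusted p = 0.0292), Hspe1 (1.51 ± 0.51, adjusted p = 0.0464) and Dnajc8 (1.82 ± 0.54, adjusted p = 0.0255); with the GC correction Hsp90b1 turned to −0.32, and Dnajb9, Hsp90aa1, Hspe1 and Dnajc8 were not called. Hspe1 lost its call in 21 of the 27 fits without 1 library (adjusted p up to 0.135). Hsp90aa1 lost it when GF ICH day 7 replicate 3 or any 1 GF ICH day 3 library was left out (up to 0.134). Dnajc8 lost it without GF ICH day 7 replicate 1 or GF ICH day 3 replicate 2 or 3 (up to 0.103). Averaged over the housings 4 rose (Hsp90b1, Hspe1, Dnajb9 and Dnajc8) and 12 fell, while 3.34% of all genes rose and 16.8% fell (20.1% in all), and there Hsp90b1 (0.64 ± 0.21, edgeR adjusted p = 0.0321) turned to −0.20 with the GC correction. Dnajb9 showed 1.83 ± 0.55 (edgeR adjusted p = 0.0243) in that average, and Hspe1, Hsp90b1, Dnajc8 and Dnajb9 lost their calls there in 16, 12, 9 and 4 of the 27 fits without 1 library. The GF comparisons of day 7 with sham and with day 3 share the GF ICH day 7 libraries.

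Housing alone was not followed by a call in sham mice or at day 3. Among sham libraries 0 members were called in ABX against SPF (0% of all genes) and 0 in GF against SPF (0.00569%). An unadjusted p under 0.05 was found for 2 and 3 members, beside 712 and 1093 of 17573 genes. DESeq2 called 1 (Hspb2) and 2 (Hspa1a and Hspb2), with 3.28% and 4.98% of all genes. At ICH day 3 neither ABX nor GF differed from SPF in any called gene (0%). In edgeR 0 and 1 members had an unadjusted p under 0.05, beside 860 and 608 of 17573 genes. DESeq2 called 1 (Hspb2) and 0, with 4.33% and 3.25% of all genes. At ICH day 7 no member was called in ABX against SPF, with 0.0854% of all genes and 13 members at an unadjusted p under 0.05, beside 3415 of 17573 genes; DESeq2 called 18, with 25.4% of all genes. In GF against SPF 1 member rose and 13 fell at day 7, while 1.08% of all genes rose and 11.8% fell (12.9% in all). The 1 was Hsp90b1, at 1622, 3958 and 4223 CPM at GF ICH day 7 and 1624, 1490 and 1542 CPM at SPF ICH day 7, with 1.07 ± 0.36 (edgeR adjusted p = 0.0490), which turned to −0.39 with the GC correction. That call was lost in 22 of the 27 fits without 1 library (adjusted p up to 0.191), and in DESeq2, with DESeq2 size factors, without a filter and with the replicate block. Dnajb1, at under 1 CPM in the 3 GF libraries and 28.1, 95.2 and 91.9 CPM in the 3 SPF libraries, fell by 7.32 on the log2 scale (standard error 1.26, edgeR adjusted p = 0.00158).

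The difference between housings in the response to hemorrhage was tested as such. At day 7 the response of 7 members was lower in GF than in SPF mice, with 6.76% of all genes lower and 0.285% higher (7.04% in all): Dnajb1, Dnajb12, Dnajc4, Dnajc5, Dnajc14, Dnajc17 and Hspb6. None was higher, and Hsp90b1 came nearest (1.60 ± 0.50, edgeR adjusted p = 0.0536). At day 3 no member's response differed between GF and SPF or between ABX and SPF (0% of all genes in each). An unadjusted p under 0.05 was found for 1 and 0 members, beside 999 and 980 of 17573 genes. DESeq2 called 1 and 0, with 2.81% and 3.83% of all genes. At day 7 no member was called for a difference between the ABX and SPF responses (0% of all genes); 4 of 62 had an unadjusted p under 0.05, beside 2236 of 17573 genes. DESeq2 called 4 members there and 1935 of the 17573 genes.

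Partners of these chaperones, 38 co-chaperones, regulators and subunits of the cytosolic chaperonin, were read in the main edgeR fit alone. The GC correction, the other tests and the fits without libraries were not read for them. In SPF mice none was called at day 3 or day 7 against sham, beside 0.102% and 0.0797% of all genes. In ABX 1 fell at day 7, Fkbp4, a co-chaperone of Hsp90 that carries steroid receptors, by 5.00 on the log2 scale (standard error 1.04, edgeR adjusted p = 0.0162), beside 0.945% of all genes called. It had 1.75, 0.632 and 5.83 CPM at ABX ICH day 7 and 117, 94.2 and 51.2 CPM in ABX sham. At GF ICH day 7 against GF sham 2 rose and 10 fell, beside 1.70% of all genes higher and 12.7% lower. Tcp1 had 394, 873 and 811 CPM at GF ICH day 7 and 4.51, 144 and 127 CPM in GF sham. Cct8 had 1236, 996 and 623 CPM at GF ICH day 7 and 121, 75.2 and 231 CPM in GF sham. These subunits of the cytosolic chaperonin, which folds actin and tubulin, did not overlap between the groups and rose by 2.92 and 2.74 on the log2 scale (edgeR adjusted p = 0.0108 and 0.00107). Hsf1, the heat shock factor, had a log2 fold change of −6.50 (edgeR adjusted p = 0.0123), Stub1, a ubiquitin ligase that works with Hsp70, −8.29 (0.000108), Fkbp4 −8.15 (0.000151) and Hyou1, the ER Hsp110, −10.89 (0.0140), and Bag5, Hspbp1, Cryab, Grpel2, Sec63 and Gak fell as well. The median over the 38 was −0.13, beside −0.14 for the 62 tested members and −2.10 for all genes.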

How the data were processed

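RNA was measured by RNA-seq (SMART-Seq v4 low-input kit, per the labels' protocols) in 27 libraries, 3 in each of 9 groups. The deposited values are whole-number counts per gene; per the submitters' processing notes the authors used cutadapt 1.9, HISAT2 2.0.4, StringTie 1.3.4d and edgeR with mm10, and the strand setting is not given in the sources used here. Of 56691 gene identifiers 52073 matched a GENCODE M21 symbol; the 4618 without one held 1.27% of counts.

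From the counts, edgeR 4.0.16 (R 4.3.3) fitted 9 group means over all 27 libraries with filterByExpr, TMM scaling (factors 0.476 to 1.31) and a robust quasi-likelihood test. P-values were Benjamini-Hochberg adjusted over all 17573 tested genes in each of 22 comparisons and called at 0.05; 39118 identifiers were set aside as low. Averages over housings weight each housing equally on the log2 scale. CPM used the TMM library sizes, and every ± after a fold change is a standard error. Log2 fold changes are the group named first over the one named second. Alternatives were DESeq2 1.42.0, limma 3.58.1 (voom with quality weights), DESeq2 size factors, no filter, a replicate block, GC offsets (a spline of GC content with 6 degrees of freedom fitted per library), each library left out in turn, and all 7 libraries under 12000 detected genes left out. Sequences and motif matches come from RefSeq promoters of GRCm38.p6.

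The members, compartments and marker lists were chosen with earlier results of these data known. Genes named were drawn from 20 leading chaperones of each role, members past the threshold in any comparison, those with the largest change among members of at least 10 CPM, and co-chaperones past the threshold. Not all of these are described. Dnajc15, a leading chaperone, and Dnajc12, Hspa4l and Hspa12a, each called lower in some day 7 comparison, are left out above. Dnajc7, Dnajb6, Dnajc24, Hspb2 and P2ry12 illustrate a level, a motif or an alternative and were named after their values were seen.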

Additional observations from a re-analysis of the deposited data

Results flagged for a closer look

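The response to hemorrhage at day 7 differed between GF and SPF mice for 7 members by the interaction term of the edgeR fit, all lower in GF, with 7.04% of all genes called. The difference of the log2 fold changes, GF minus SPF, was −9.39 ± 2.05 for Dnajc5 (edgeR adjusted p = 0.00935), −6.44 ± 1.48 for Dnajb1 (0.0130), −12.95 ± 3.22 for Dnajb12 (0.0205), −14.71 ± 3.97 for Hspb6 (0.0302), −7.01 ± 2.11 for Dnajc14 (0.0455), −12.21 ± 3.67 for Dnajc17 (0.0463) and −8.27 ± 2.51 for Dnajc4 (0.0464). Dnajb12, Dnajc17 and Hspb6 had 0 counts at GF ICH day 7, so the size of their difference depends on the model. The 3 GF ICH day 7 libraries, 2 of the 3 GF sham libraries and none of the 6 SPF libraries had under 12000 detected genes, and the part of this in the result was not tested. Every one of the 7 lost its call when some single library was left out: Dnajc5 without SPF sham replicate 3 (adjusted p = 0.0533), Dnajb1 without SPF sham replicate 1 or 3 (up to 0.0644), Dnajb12 without GF ICH day 7 replicate 3 or SPF sham replicate 2 or 3 (up to 0.0807), and Hspb6, Dnajc4, Dnajc14 and Dnajc17 in 8, 21, 22 and 23 of the 27 fits.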

How the results depend on the processing

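Counts of called members that moved by over 1.5 times were as follows. DESeq2 called 1 member in SPF at day 3 against sham, 1 in GF at day 3, 1 in SPF at day 7, 19 in ABX at day 7 (27.8% of all genes), 28 in GF at day 7 (39.4%) and 25 in the day 7 average (38.2%). It called 19 in ABX at day 7 against day 3 (27.3%), 1 and 2 in ABX and GF sham against SPF sham, 1 and 18 in ABX against SPF at day 3 and day 7 (25.4% at day 7). For responses set against SPF it called 1 in GF at day 3, 4 in ABX at day 7 and 16 in GF at day 7 (28.2%). Limma called 1 in SPF at day 3 (2.86% of all genes), 7 in GF at day 7 (6.63%) and 2 in the day 3 average (5.17%). It called 1 in ABX at day 7 against day 3 (1.61%), 1 in GF against SPF at day 3 (1.46%) and 4 in the GF response at day 7 (4.99%). Without the 7 libraries the counts were 1 in SPF at day 3, 6 in ABX at day 7, 2 in the day 3 average, 10 in ABX at day 7 against day 3, 8 in ABX against SPF at day 7 and 2 in the ABX response at day 7. The count in SPF at day 3 stood beside 1.26% of all genes. ABX ICH day 7 and GF sham rested on 1 library each in that fit. Counts from comparisons with them cannot be told from the state of that library. Comparisons with GF ICH day 7 or an average over day 7 could not be fitted. GC offsets gave 10 in the average of day 7 against day 3, 12 in GF at day 7 against day 3 and 3 in the GF response at day 7; the last was 4 without a filter. Replicate numbers did not pair samples (correlations of same-numbered deviations −0.13 to 0.105, median 0.00693, 108 pairs), and the fit with a replicate block gave 3 in that response. Leaving out GF sham replicates 1 and 2 together, chosen after seeing the data, gave 1 in ABX at day 7 against day 3 (1.76% of all genes). That fit leaves 1 GF sham library, so no count is given for GF at day 7 against sham.

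With each library left out in turn, the counts were 0 to 1 in GF at day 3 (1 without GF sham replicate 3), 0 to 3 in ABX at day 7, 8 to 20 in GF at day 7, 0 to 2 in the day 3 average, 8 to 18 in the day 7 average, 8 to 19 in the average of day 7 against day 3, 0 to 4 and 8 to 21 in ABX and GF at day 7 against day 3, 0 to 3 and 2 to 17 in ABX and GF against SPF at day 7, and 0 to 9 in the GF response at day 7, the 0 being without SPF sham replicate 3. Of 86 calls of members over all comparisons, 28 held in every such fit, 4 of them higher. The value of Dnajc1, GF ICH day 7 vs GF sham, turned to 0.11 without GF sham replicate 3 and was −6.50 at its lowest among fits without 1 library. The direction also turned for Hsp90b1 with GC offsets, to −0.20 in the average of day 7 against day 3, −0.32 in GF at day 7 against day 3 and −0.39 in GF against SPF at day 7. Across the alternatives that keep all libraries, between 52 and 77 of the 86 calls held. The median of all genes in GF at day 7 against sham was −2.63 with DESeq2 size factors and −2.10 with TMM. The cause of these changes was not tested.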
